A study of Homo sapiens with 16 samples.

Results

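The HOXA genes lie side by side on chromosome 7 and encode homeodomain transcription factors. The members described here are the 10 protein-coding genes HOXA2, HOXA3, HOXA4, HOXA5, HOXA6, HOXA7, HOXA9, HOXA10, HOXA11 and HOXA13, chosen by symbol, and all 10 were found among the 23230 gene symbols of the count files. In the GRCh38 assembly with the GENCODE v29 annotation they span chr7:27100354-27200106, all on the minus strand, with HOXA2 at the low-coordinate end and HOXA13 at the high-coordinate end.

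RNA was sequenced from 8 established human blood cell lines, each exposed to either of 2 peptides, which gave 16 libraries with 1 library per peptide and line. The peptide Y518R binds DPY30, and the peptide 3R does not bind it and served as the control. Per the labels, MOLM13 and THP1 carry the fusion MLL-AF9, RS4-11 carries MLL-AF4 and KOPN8 carries MLL-ENL. The lines without an MLL fusion were K562, which carries BCR-ABL, the Burkitt's line RAJI, the Myc-dependent T cell leukemia line JURKAT, and P493-6, which models Burkitt's disease. All lines were grown in Advanced RPMI with 2.5% fetal bovine serum. The sources used here do not give the peptide dose or the exposure time. Each line is a single established culture, so the replicates of a comparison are cell lines, and what the MLL fusion adds cannot be told apart from the lineage or other history of these lines.

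In embryos and in blood, HOX genes are switched on in blocks along their cluster, and the HOXA genes are highest in stem and early progenitor cells and are turned down as blood cells mature. The MLL protein (KMT2A) keeps HOXA genes active as part of a complex that methylates lysine 4 of histone H3, and DPY30 is a shared core subunit of that complex and its relatives. Fusions of MLL recruit elongation factors to the HOXA cluster, where HOXA9 with its cofactor MEIS1 is a well-known driver of leukemia. Whether a peptide that binds DPY30 shifts the HOXA genes in lines that express them is the question the peptide comparison addresses.

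The libraries held 19354300 to 43003124 gene counts, and a count of 0 allows up to 3 counts, or 0.0691 to 0.157 CPM. CPM here is the deposited count scaled to a common library size, with TMM factors that correct for composition between libraries. Reads assigned to no gene made up 44.7% in the RAJI 3R library and 17.7% to 26.9% in the others. Blood lineage markers were set beside the labels, which give no lineage for the MLL-fusion lines. The 4 granulocytic markers (MPO, ELANE, AZU1 and PRTN3) summed to 1193 to 5683 CPM in the libraries of MOLM13 and THP1 and to at most 3.92 CPM in every other library. The 5 monocytic markers (LYZ, CD14, CSF1R, CD33 and FCGR1A) were also all at 1 CPM or more in MOLM13 and THP1. They summed to 659 to 1008 CPM there and to at most 54.5 CPM in every other library. The 4 B-precursor markers (VPREB1, IGLL1, DNTT and RAG1) summed to 952 to 1164 CPM in RS4-11 and KOPN8 and to 541 and 582 CPM in JURKAT. In JURKAT 3 of these 4 were at 1 CPM or more. The sum does not show which genes carried it and is not read as B lineage there. The 5 B cell markers were all at 1 CPM or more in RAJI, P493-6 and KOPN8, and 4 of 5 were so in RS4-11 and THP1. They summed to 1858 to 2872 CPM in RAJI and P493-6, 1277 and 1380 in KOPN8, and 1008 and 1021 in RS4-11. In THP1 the B cell markers summed to 7.98 and 8.64 CPM. The 4 T cell markers found were all at 1 CPM or more in JURKAT, and the 5 erythroid markers were so in K562. Some lines crossed lineages. The T cell markers summed to 46.0 and 47.0 CPM in KOPN8, where 2 of 4 were at 1 CPM or more. The 5 monocytic markers were all at 1 CPM or more in the RS4-11 3R library, at a sum of 33.7 CPM against 659 to 1008 in MOLM13 and THP1.

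The promoters shown here are those of neighbouring members that differed within a line. In THP1 HOXA7 was below 1 CPM beside an expressed HOXA9, and in RS4-11 HOXA11 was below 1 CPM beside an expressed HOXA10, as described with the levels. RefSeq windows of 300 bases, mostly upstream of an annotated start in GRCh38.p14, were found for 9 of the 10 members, all but HOXA5. HOXA10 has windows at 2 starts, and both are printed. All lie on the minus strand and are written 5′ to 3′ with CG dinucleotides in capitals. The windows are HOXA7 at chr7:27156626-27156925, HOXA9 at chr7:27165488-27165787, HOXA10 at chr7:27174271-27174570, the upstream HOXA10 start at chr7:27179812-27180111, and HOXA11 at chr7:27185183-27185482.
HOXA7: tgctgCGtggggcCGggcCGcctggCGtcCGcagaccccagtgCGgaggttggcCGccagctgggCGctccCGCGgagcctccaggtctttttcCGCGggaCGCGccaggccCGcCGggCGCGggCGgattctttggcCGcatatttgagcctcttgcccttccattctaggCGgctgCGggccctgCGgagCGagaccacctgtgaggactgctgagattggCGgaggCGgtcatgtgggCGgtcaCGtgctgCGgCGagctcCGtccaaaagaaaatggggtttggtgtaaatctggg
HOXA9: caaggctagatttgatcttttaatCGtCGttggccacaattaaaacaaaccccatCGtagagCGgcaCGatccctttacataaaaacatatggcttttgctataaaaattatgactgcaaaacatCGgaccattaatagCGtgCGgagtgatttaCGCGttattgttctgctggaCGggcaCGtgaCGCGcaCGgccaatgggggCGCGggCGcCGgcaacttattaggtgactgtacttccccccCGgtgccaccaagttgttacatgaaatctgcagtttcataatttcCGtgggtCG
HOXA10: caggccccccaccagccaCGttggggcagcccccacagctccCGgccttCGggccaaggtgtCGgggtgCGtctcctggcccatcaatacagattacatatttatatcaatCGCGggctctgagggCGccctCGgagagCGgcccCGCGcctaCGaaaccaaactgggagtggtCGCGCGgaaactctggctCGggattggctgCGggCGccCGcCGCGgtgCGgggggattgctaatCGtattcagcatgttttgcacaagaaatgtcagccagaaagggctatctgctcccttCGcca
HOXA10, upstream start: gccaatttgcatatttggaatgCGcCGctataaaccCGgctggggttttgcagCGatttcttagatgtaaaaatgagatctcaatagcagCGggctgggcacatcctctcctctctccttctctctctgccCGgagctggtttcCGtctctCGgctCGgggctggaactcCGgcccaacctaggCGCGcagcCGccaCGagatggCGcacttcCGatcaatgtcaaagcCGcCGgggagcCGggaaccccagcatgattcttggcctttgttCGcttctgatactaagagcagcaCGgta
HOXA11: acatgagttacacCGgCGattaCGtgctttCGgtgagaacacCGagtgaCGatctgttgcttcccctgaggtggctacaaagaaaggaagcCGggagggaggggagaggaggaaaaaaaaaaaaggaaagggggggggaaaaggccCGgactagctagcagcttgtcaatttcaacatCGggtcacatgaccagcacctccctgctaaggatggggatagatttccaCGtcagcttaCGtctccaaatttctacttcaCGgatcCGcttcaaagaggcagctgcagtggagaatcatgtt

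The HOXA7 window held 31 CG dinucleotides and the HOXA9 window held 22. The HOXA10 windows held 25 and, at the upstream start, 21, and the HOXA11 window held 13. The median over all 35116 windows of this length was 14, and 20.7% of windows held at least as many as HOXA7. The letters TATAAA, the TATA box, searched on both strands, occurred in the HOXA9 window, in both HOXA10 windows and in 1 of the 7 HOXA3 windows, and in 11.5% of all windows. These counts describe letters in the reference and were not set against the expression values.

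A member was counted as on in a line at 1 CPM or more in both libraries of that line. By that count 37 of 80 pairs of a member and a line were on, 31 of 40 in the MLL-fusion lines and 6 of 40 in the other lines. All 10 members were on in MOLM13, 9 in KOPN8 (all but HOXA13), 7 in RS4-11 (HOXA3 to HOXA7, HOXA9 and HOXA10) and 5 in THP1 (HOXA5, HOXA9, HOXA10, HOXA11 and HOXA13). JURKAT had 4 on (HOXA3, HOXA5, HOXA6 and HOXA7) and RAJI 2 (HOXA3 and HOXA5), while K562 and P493-6 had 0. HOXA5, HOXA9 and HOXA10 were the members on in all 4 MLL-fusion lines, and of these HOXA9 and HOXA10 were on in 0 of the 4 other lines. At 0.5 CPM 40 pairs were on and at 2 CPM 31 were.

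Summed over the members, KOPN8 had 814 CPM with 3R and 838 with Y518R, the highest of the 8 lines. MOLM13 had 289 and 299 CPM, THP1 had 169 and 156, and RS4-11 had 152 and 159. JURKAT had 21.9 and 20.8 CPM and RAJI 4.07 and 5.39. K562 and P493-6 stayed at or below 0.461 CPM in each library. The sums of THP1 and RS4-11 overlapped between the lines, and each other neighbouring pair in this order down to JURKAT and RAJI was separated by more than the gap between the libraries of either line.

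**Figure D1:**
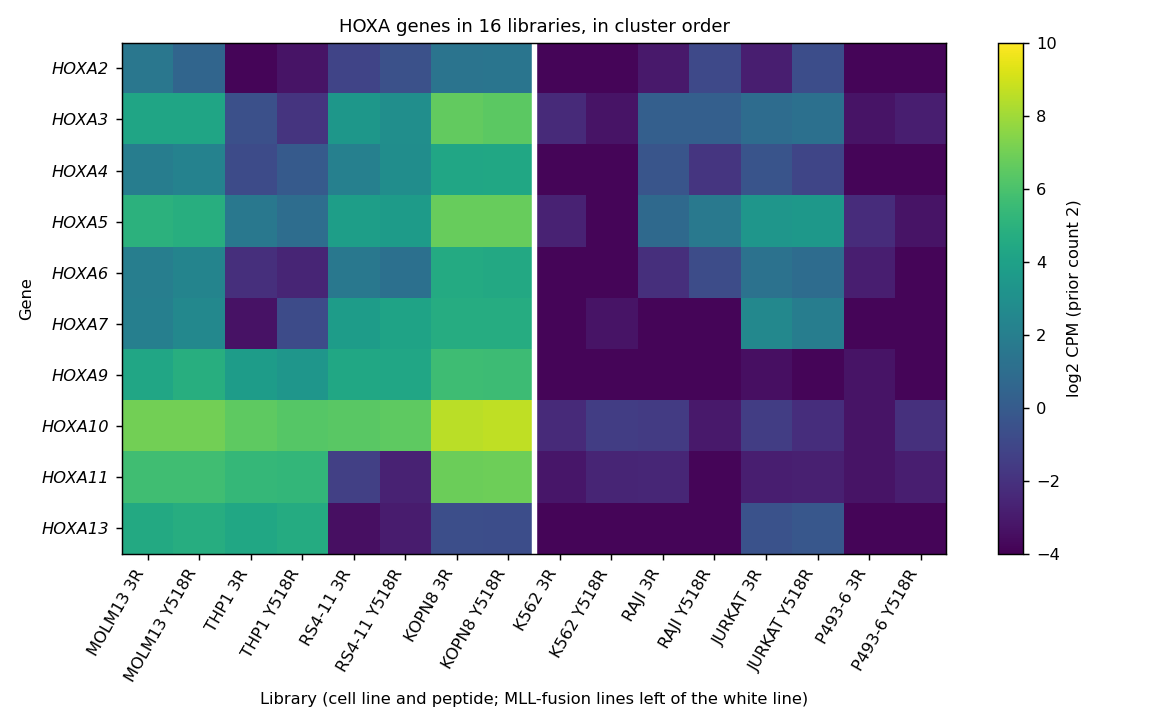
Heat map of log2 CPM (prior count 2) for the 10 HOXA genes in cluster order (rows) in the 16 libraries (columns, cell line and peptide), with the MLL-fusion lines left of the white line. MOLM13 was on throughout, and THP1 was dark from HOXA2 to HOXA7 apart from HOXA5. RS4-11 was dark at HOXA2, HOXA11 and HOXA13, KOPN8 was dark at HOXA13, and K562 and P493-6 were dark throughout.

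HOXA9 and HOXA10, posterior-group genes whose products pair with PBX and MEIS proteins on DNA, had the most similar pattern of any 2 members over the 8 lines. With 3R given first, HOXA9 levels were 49.4 and 48.2 CPM in KOPN8, 19.2 and 27.1 CPM in MOLM13, 20.3 and 19.4 CPM in RS4-11, and 13.0 and 10.2 CPM in THP1. The other lines held 0 or 1 HOXA9 count in each library. KOPN8 was therefore highest, MOLM13 and RS4-11 overlapped, and THP1 was the lowest of the lines that expressed it.

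HOXA10 levels, in the same order of peptides, were 373 and 402 CPM in KOPN8, 129 and 132 in MOLM13, 84.9 and 92.4 in RS4-11, and 90.7 and 78.1 in THP1. The other lines had 1 to 12 HOXA10 counts in each library, at most 0.296 CPM. Here RS4-11 and THP1 overlapped, and KOPN8 and MOLM13 each stood above them. The log2 CPM of HOXA9 and HOXA10, averaged over the peptides of a line, had a Pearson correlation of 0.997 over 8 lines, a description in which the points fall into expressing and silent lines. Reads on sequence shared by the pair could touch both values, because the read-through symbol HOXA10-HOXA9, which overlaps them, was listed at 0 in every library. The sources used here do not say how the counting treated those reads, and their part in the HOXA9 and HOXA10 levels was not tested.

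HOXA11, a posterior-group gene known for its roles in limb, kidney and uterus, was on in 3 of the 4 MLL-fusion lines. It stood at 114 and 120 CPM in KOPN8, 52.6 and 51.3 in MOLM13, and 40.2 and 38.9 in THP1. In RS4-11 it stood at 0.323 and 0.0908 CPM, from 14 and 3 counts, and in the other lines at no more than 3 counts in a library. RS4-11 thus expressed HOXA10 and nearly no HOXA11, which are neighbours in the cluster.

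HOXA13, the last gene of the cluster, needed in embryos for the limb tips and the urogenital tract, was on in the MLL-AF9 lines MOLM13 and THP1. MOLM13 held 22.9 and 26.0 CPM of it, and THP1 held 20.4 and 24.7 CPM. KOPN8 had 0.574 and 0.549 CPM, JURKAT had 0.637 and 0.816, and RS4-11 had 1 and 2 counts. MOLM13 and THP1 were also the lines with granulocytic markers and the highest monocytic sums. The part of lineage in this pattern was not tested. No reads of HOXA13 were counted in K562, RAJI or P493-6.

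HOXA7, whose product acts in the middle of the body axis, went with the anterior genes rather than with its neighbour HOXA9. It stood at 25.4 and 24.9 CPM in KOPN8, 13.5 and 17.1 in RS4-11, and 4.11 and 5.82 in MOLM13. In THP1 it had 1 and 15 counts, 0.0317 and 0.496 CPM, and in JURKAT it had 5.64 and 3.79 CPM. JURKAT therefore overlapped MOLM13, although HOXA9 was not detected beyond 1 count in JURKAT. Over the 8 lines HOXA7 had a correlation of 0.93 with HOXA6 and of 0.71 with HOXA9, again a description over lines that are mostly either on or off.

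HOXA5, which is studied in lung development and in the control of blood lineages, was the member on in the most lines. It stood at 108 and 107 CPM in KOPN8, 32.0 and 27.5 in MOLM13, 14.4 and 13.0 in RS4-11, and 2.98 and 1.95 in THP1, with 3R given first. JURKAT had 10.3 and 11.0 CPM and RAJI 1.67 and 3.06. JURKAT was below RS4-11 and above THP1, and RAJI overlapped THP1, so the classes overlapped for this member.

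HOXA3, known for its role in forming the thymus and parathyroid, was on in 5 of the 6 lines in which HOXA5 was on. It stood at 97.8 and 90.0 CPM in KOPN8, 18.4 and 18.5 in MOLM13 and 10.6 and 7.42 in RS4-11. THP1 had 0.602 and 0.199 CPM, below JURKAT (1.84 and 2.19) and RAJI (1.10 and 1.09). HOXA3 spans its neighbour HOXA4 in the GENCODE v29 annotation, so reads of the pair may not be separated fully. RefSeq also places HOXA3 starts upstream of HOXA5 and HOXA6, so the same limit may touch those members.

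HOXA2, HOXA4 and HOXA6 pattern the hindbrain and the trunk in embryos. HOXA2 was on in 2 of the MLL-fusion lines and HOXA4 and HOXA6 in 3 each. HOXA4 reached 19.7 and 20.2 CPM in KOPN8, HOXA6 reached 23.4 and 22.1, and HOXA2 reached 2.54 and 2.68. In MOLM13 HOXA2 was at 2.84 and 1.38 CPM, and it was below 1 CPM in every library of the 6 lines other than MOLM13 and KOPN8. HOXA6 was on in JURKAT at 2.38 and 1.86 CPM, and HOXA4 was at no more than 0.731 CPM in any library of the other lines. In THP1 none of these 3 members reached 1 CPM.

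Levels of different members were compared per length, as CPM per kilobase of GENCODE v29 exons averaged over the libraries of a line. HOXA10 was the highest member in all 4 MLL-fusion lines, at 123 CPM per kilobase in KOPN8, 41.4 in MOLM13, 28.1 in RS4-11 and 26.7 in THP1. HOXA11 came second in MOLM13 (22.6) and THP1 (17.2), HOXA9 in RS4-11 (9.64) and HOXA5 in KOPN8 (65.0). In JURKAT and RAJI the highest member was HOXA5, at 6.41 and 1.43 CPM per kilobase. The exon lengths come from an annotation that may differ from the one the authors counted with.

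The classes were compared in the 3R libraries to ask which members separated the MLL-fusion lines from the others. Of the 8 members that passed the count filter, 2 were called higher in the MLL-fusion lines and 0 lower, by edgeR's quasi-likelihood test at an adjusted p under 0.05. Of all 13107 genes tested 0.0458% were called higher. The called members were HOXA10, with an adjusted p of 0.0134, and HOXA9, with an adjusted p of 0.0239. These 2 passed the filter only through the MLL-fusion libraries, where they are high, so a change below 0 was not possible for them. All 8 tested members had a fitted change above 0, as did 49.2% of all genes tested. Their median was 4.80 on the log2 scale against -0.01 over all genes tested. Both the count and the median include HOXA9 and HOXA10, whose direction the filter fixed. HOXA2 and HOXA11 did not pass the filter. Without a filter HOXA11 had an adjusted p of 0.252 and HOXA2 of 0.444 in the same edgeR test.

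As sizes, HOXA10 had 18693 counts in the 4 MLL-fusion 3R libraries together and 21 in the other 4, a pooled ratio of 806 (95% counting interval 527 to 1302). HOXA9 had 2950 counts against 2, a ratio of 1335 (369 to 11028). HOXA11 had 5295 counts against 7, a ratio of 685 (332 to 1704), with nearly all of the counts from 3 lines. KOPN8 alone gave 9096 of the HOXA10 counts and 2770 of the HOXA11 counts. Without KOPN8 the ratio was 516 for HOXA10 and 407 for HOXA11, and without RS4-11 that of HOXA11 was 1055. Over all 8 ways to leave out 1 line the ratio of HOXA9, with only 2 counts in the other class, ran from 986 to 1996. The counting intervals do not cover this spread between lines. With Y518R, HOXA9 had 3008 counts in the MLL-fusion libraries and 0 in the others. Against a floor of 3 counts over the other group HOXA9 was 921-fold higher in the MLL-fusion libraries. The 95% counting interval of that Y518R ratio began at 749.

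The 6 other tested members did not pass in this comparison. HOXA3 had an edgeR change of 5.35 ± 1.74 (SE, log2) with an adjusted p of 0.391. HOXA13 had 5.99 ± 2.46 (0.480), HOXA4 had 4.26 ± 1.78 (0.481), HOXA5 had 3.69 ± 1.67 (0.502), HOXA6 had 3.52 ± 1.88 (0.560) and HOXA7 had 2.92 ± 2.39 (0.706), with adjusted p in parentheses. These members are spread over several log2 units within a class, since each was near 0 in at least 1 MLL-fusion line or expressed in JURKAT or RAJI. Without JURKAT the log2 change was 11.2 for HOXA7 and for HOXA13, 6.58 for HOXA6 and 5.95 for HOXA5, and edgeR adjusted p were 0.361 to 0.386. HOXA7 and HOXA13 then had 0 counts in every line of the other class. Their 11.2 therefore has no measured level in that class behind it, and a change below 0 was not possible for them. Without KOPN8 the log2 change was 1.81 for HOXA6 and 2.42 for HOXA5.

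The HOXA9 call was lost with any 1 of the 8 lines left out, at edgeR adjusted p of 0.0517 to 0.112, while its fitted log2 change stayed between 9.71 and 10.74. HOXA10 stayed called with 5 of the 8 lines left out in turn (THP1, RS4-11, KOPN8, JURKAT and P493-6), at edgeR adjusted p of 0.0168 to 0.0440. Leaving out MOLM13, K562 or RAJI took it above the threshold of 0.05, with adjusted p of 0.0622, 0.0747 and 0.0641. The log2 change of HOXA10 stayed between 9.09 and 10.23 over all 8. In the Y518R libraries, where 0.0304% of 13177 genes were called higher, HOXA10 was called (adjusted p 0.0219) and HOXA9 was not (0.0944, edgeR). DESeq2, run on the 3R libraries, called HOXA9, HOXA10 and HOXA3 higher, the last at an adjusted p of 0.00512. It called 477 of 13107 genes in all, 307 higher and 170 lower, against 7 by edgeR, 6 higher and 1 lower.

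On log2 CPM alone, all 4 MLL-fusion lines lay above all 4 other lines for HOXA9, HOXA10 and HOXA11 with 3R. The same held for 4.01% of the 13107 genes compared, and HOXA11 is not among those genes. For HOXA9 the MLL-fusion lines averaged 4.49 ± 0.81 (SD, n = 4) and the others -3.57 ± 0.30, and an exact 2-sided permutation test gave p = 0.0286, the smallest that 4 against 4 allows. HOXA10 averaged 7.12 ± 0.99 (SD, n = 4) against -2.15 ± 0.82, and HOXA11 averaged 4.13 ± 3.71 against -2.92 ± 0.33, each with the same exact p. Adjusted over all genes compared, the lowest exact p was 0.384, so no gene passed by this test. With Y518R the members without overlap were HOXA4, HOXA9 and HOXA10, and HOXA11 in RS4-11 then fell among the other lines. The share of all genes without overlap was taken for 3R only, so the Y518R result has no background beside it.

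**Figure D2:**
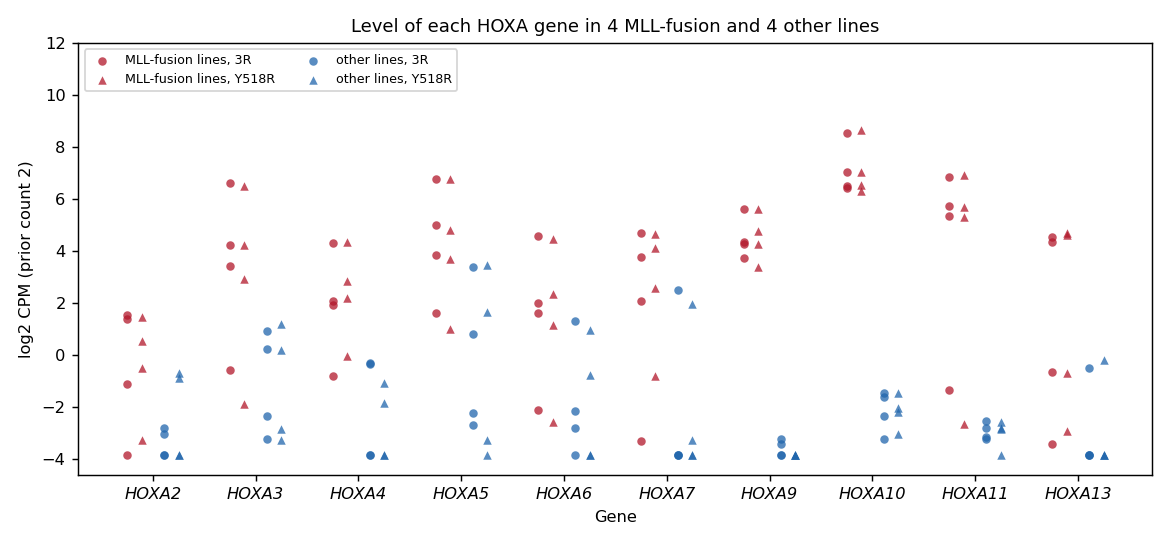
Log2 CPM (prior count 2) of each HOXA gene in the 4 MLL-fusion lines (red) and the 4 other lines (blue), with circles for 3R and triangles for Y518R, 1 point per library. HOXA9 and HOXA10 were the members whose red and blue points were separate with both peptides.

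The peptide comparison set Y518R against 3R within each line. Over all 8 lines, 9 members passed the count filter and 0 were called in either direction, as 0% of the 13043 genes were, by edgeR's quasi-likelihood test with the cell line as a block. HOXA10 had 0.01 ± 0.10 (SE, log2) and HOXA9 had -0.01 ± 0.16, both close to 0. HOXA5 had -0.08 ± 0.14, HOXA3 had -0.20 ± 0.15 and HOXA7 had 0.23 ± 0.28. Of the 9 tested members 5 had a value above 0, and their median was 0.01 against a median of -0.00 over all genes. Over all genes 397 had an unadjusted p under 0.05 with edgeR, and DESeq2 called 0.

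In the 4 MLL-fusion lines, fitted with a peptide term of their own, 0 of 9 tested members and again 0% of 13043 genes were called by edgeR, with 770 genes at an unadjusted p under 0.05. DESeq2 called 1 gene, which is no member. HOXA10 had 0.01 ± 0.11 (SE, log2) and HOXA9 had 0.01 ± 0.16. The members with the lowest unadjusted p were HOXA4 at 0.44 ± 0.25, HOXA3 at -0.29 ± 0.18, HOXA7 at 0.45 ± 0.31 and HOXA5 at -0.21 ± 0.16, with edgeR adjusted p of 0.852, 0.857, 0.857 and 0.883. HOXA13 had 0.21 ± 0.24, HOXA6 -0.10 ± 0.31 and HOXA2 -0.08 ± 0.46. HOXA11, which the filter removed, had -0.06 ± 0.15 in the fit without a filter. These errors leave room for changes of the size shown in single members and do not show that the levels were equal.

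**Figure D3:**
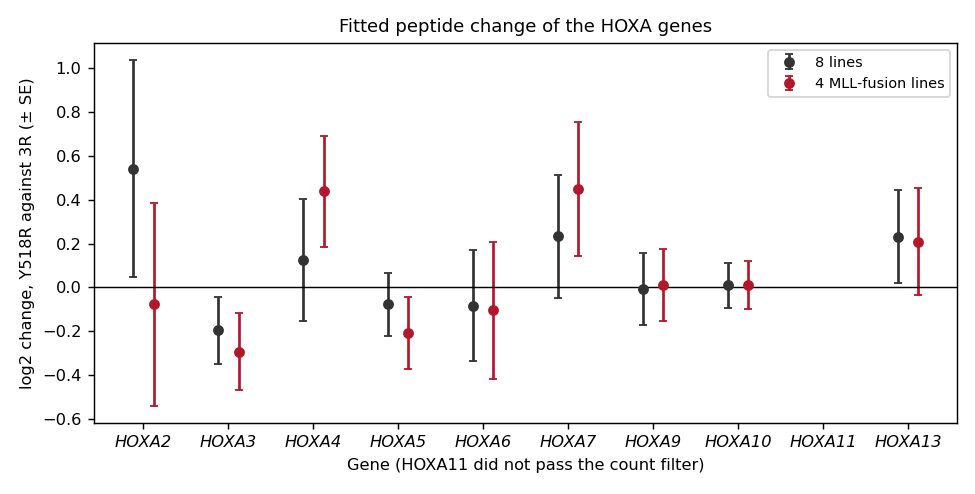
Fitted log2 change, Y518R against 3R, with its SE for the 9 HOXA genes that passed the filter, over 8 lines (black) and in the 4 MLL-fusion lines (red). HOXA9 and HOXA10 lay between -0.01 and 0.01 in both fits, and the widest error was that of HOXA2.

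The point values of HOXA4 and HOXA5 had opposite signs across the MLL-fusion lines. HOXA4 was higher with Y518R in 4 of 4 of these lines, from 3.69 to 4.49 CPM in MOLM13, 0.507 to 0.893 in THP1, 4.15 to 7.17 in RS4-11 and 19.7 to 20.2 in KOPN8. HOXA4 went the other way in RAJI, from 14 to 4 counts, a ratio of 0.283 (95% counting interval 0.0679 to 0.903), and in JURKAT, from 29 to 11 counts, a ratio of 0.575 (0.259 to 1.18). HOXA5 was higher in 0 of 4 MLL-fusion lines, and its levels are given above. Their mean log2 ratios were 0.46 ± 0.36 (SD, n = 4) for HOXA4 and -0.24 ± 0.25 for HOXA5. The SD between the lines was close to the size of the mean for both genes, slightly below it for HOXA4 and slightly above it for HOXA5, and neither passed the edgeR test. The pair was picked from the 10 members for sharing a sign over these lines. Of all 13043 genes tested 6.82% were higher in 4 of 4 MLL-fusion lines and 6.99% were lower in 4 of 4.

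Within a single line no test over replicates is possible, and ratios carry only an exact 95% counting interval. At 10 CPM or more in either library, 0 of 6 members in MOLM13, 0 of 4 in THP1, 0 of 5 in RS4-11, 0 of 8 in KOPN8 and 0 of 1 in JURKAT differed by 2-fold or more. Over all genes at that level the shares were 0.634% in MOLM13, 2.95% in THP1, 0% in RS4-11, 0.0326% in KOPN8 and 0% in JURKAT. Counting error was exceeded more widely. The interval excluded a ratio of 1 for 5 of the 10 members on in MOLM13, where it did so for 63% of all genes at 1 CPM or more. The counts were 4 of 5 in THP1 (63.6% of all genes), 5 of 7 in RS4-11 (46%) and 3 of 9 in KOPN8 (49.8%). With so many genes outside the counting interval in every line, counting error is smaller than the difference between 2 libraries of a line, and these counts do not separate the members from other genes.

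HOXA9 had a ratio of Y518R to 3R of 1.41 (95% counting interval 1.24 to 1.60) in MOLM13 and of 0.784 (0.674 to 0.911) in THP1, the lines that share the fusion MLL-AF9. In RS4-11 the ratio was 0.953 (0.860 to 1.06), and in KOPN8 it was 0.976 (0.904 to 1.05). The ratio was above 1 in 1 of 4 lines, and the value for MOLM13 stood apart from the other lines.

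HOXA10 had a ratio of 1.02 (0.970 to 1.08) in MOLM13, 0.861 (0.815 to 0.910) in THP1, 1.09 (1.04 to 1.14) in RS4-11 and 1.08 (1.05 to 1.11) in KOPN8. THP1 was the line in which it was lower. In THP1 HOXA5 was also lower, at 0.656 from 94 and 59 counts, while HOXA13 was higher, at 1.21 (1.09 to 1.35), so the members on in that line did not share a direction. The summed granulocytic markers in THP1 were 5683 CPM with 3R and 2728 with Y518R, and in MOLM13 they were 1193 and 1653. Their part in the HOXA values was not tested.

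In RS4-11 the anterior and middle members went both ways. HOXA4 had a ratio of 1.73 (1.42 to 2.11) and HOXA7 of 1.26 (1.12 to 1.42), while HOXA3 had 0.698 (0.595 to 0.817) and HOXA6 had 0.723 (0.533 to 0.973). In KOPN8, the line with the most HOXA RNA, all 9 members that were on had ratios between 0.921 (HOXA3) and 1.08 (HOXA10). In MOLM13 HOXA2 had the lowest ratio, 0.487 (0.304 to 0.764), from 67 and 29 counts, and HOXA7 had 1.42 (1.08 to 1.87).

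Among the lines without an MLL fusion, HOXA7 in JURKAT had a ratio of 0.672 (0.527 to 0.852) and HOXA5 in RAJI had 1.83 (1.17 to 2.91). The RAJI value rests on 32 and 59 counts and on the 3R library in which 44.7% of reads were given to no gene. HOXA5 in JURKAT had 1.07 (0.919 to 1.24). Members with few counts gave wide intervals, as for HOXA7 in THP1, where 1 and 15 counts gave 2.41 to 660.

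**Figure D4:**
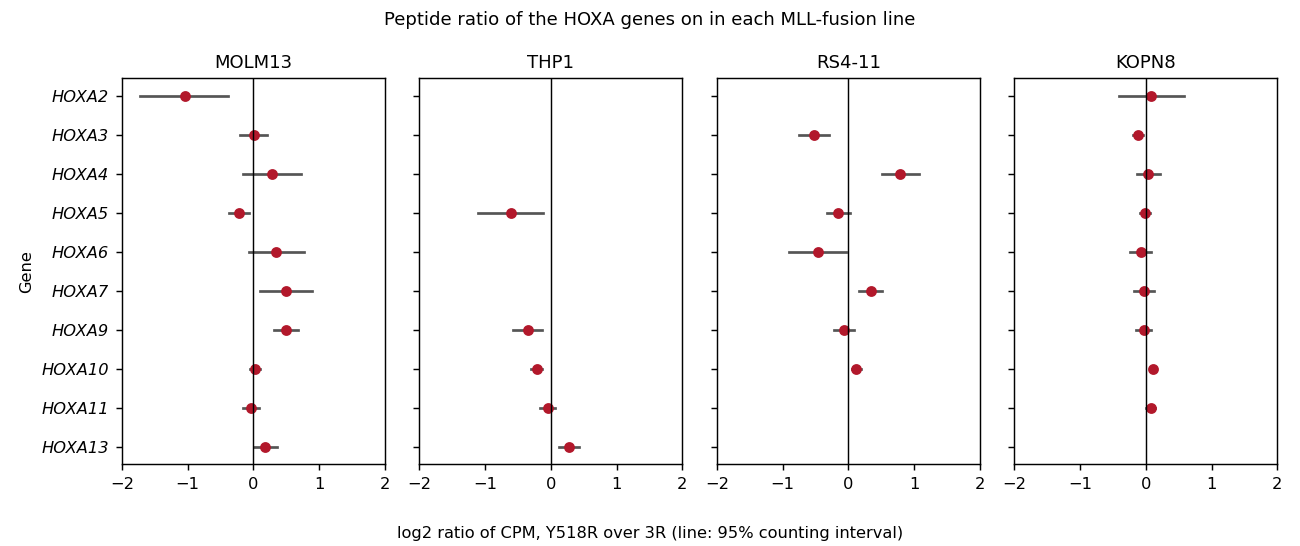
Log2 ratio of CPM, Y518R over 3R, of the HOXA genes that were on in each MLL-fusion line (points) with the exact 95% counting interval (lines), which covers counting error only. KOPN8 values lay close to 0, and in MOLM13, THP1 and RS4-11 members lay on both sides of it.

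Other transcripts of the cluster were measured beside the members. Of 12 listed cluster transcripts and flanking genes 8 were in the files. HOTTIP, a non-coding RNA made next to HOXA13, stood at 10.2 and 9.50 CPM in MOLM13 and 4.69 and 5.43 in THP1, with at most 5 counts in any other library. HOXA11-AS1, antisense to HOXA11, stood at 16.2 and 21.4 CPM in MOLM13, 20.9 and 21.0 in THP1, with 706 and 1049 counts in KOPN8 and 4 and 3 in RS4-11. These are the lines in which HOXA13 and HOXA11, respectively, were on, and without a stated strand reads of HOXA11 and its antisense partner cannot be told apart.

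The non-coding HOTAIRM1, transcribed at the low-coordinate end of the cluster, reached beyond the MLL-fusion lines. It stood at 1.64 to 23.8 CPM in the 8 MLL-fusion libraries, 5.64 and 5.90 in RAJI and 3.70 and 3.38 in JURKAT. In THP1 it stood at 3.74 and 3.94 CPM, although HOXA2 and HOXA3 were below 1 CPM there. It had no count in K562 or P493-6, so the classes overlapped for it. MIR196B, the microRNA gene between HOXA9 and HOXA10, had 9 to 65 counts in each MLL-fusion library and 0 in each of the others. In KOPN8, the line with the most HOXA9 and HOXA10, it stood at 0.780 and 0.291 CPM. It had an edgeR adjusted p of 0.192 in the class comparison.

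Of the flanking genes, SKAP2, an adaptor gene, ranged from 53.8 CPM in MOLM13 to 489 CPM in KOPN8 over the MLL-fusion libraries and was also at 107 and 93.7 CPM in RAJI. Of these transcripts and flanking genes, 0 of 3 tested were called for the peptide in either fit and 0 of 4 in the class comparison.

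MEIS1, the cofactor that acts with HOXA9, was at 190 and 177 CPM in KOPN8, 118 and 112 in RS4-11 and 54.0 and 50.1 in MOLM13. In THP1 it had 2 and 6 counts although HOXA9 and HOXA10 were on there. MEIS2 was at 14.6 and 11.1 CPM in THP1. PBX3, a partner of HOXA9 and MEIS1, was at 285 and 288 CPM in THP1, and at 137 to 218 CPM in the other MLL-fusion libraries. PBX3 was also at 94.5 and 87.5 CPM in P493-6, which had no member on. Of 6 tested genes of the MEIS, PBX and PKNOX families (9 listed) 0 were called in any of the 3 fits, and in the class comparison PBX3 had 2.46 ± 0.90 (SE, log2; edgeR adjusted p 0.435) and MEIS1 5.32 ± 2.14 (0.472).

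**Figure D5:**
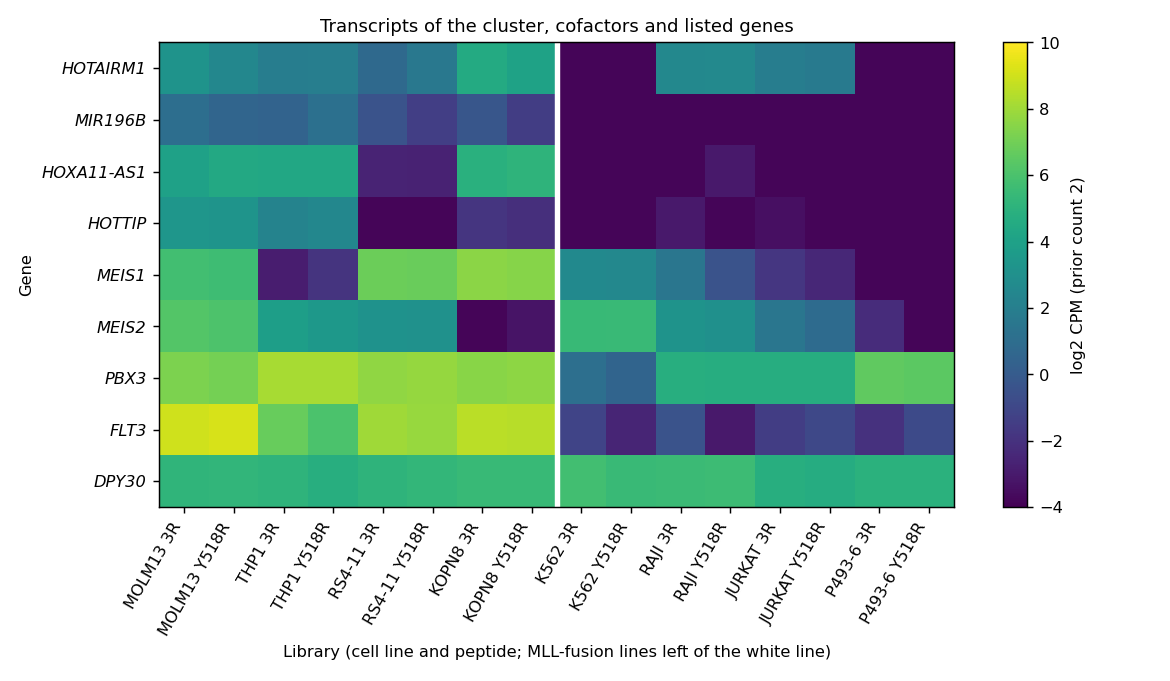
Heat map of log2 CPM (prior count 2) of 4 non-coding transcripts of the cluster, cofactor genes, FLT3 and DPY30 (rows) in the 16 libraries (columns). HOTTIP was bright in MOLM13 and THP1, MEIS1 was dark in THP1, and DPY30 was at similar levels in all libraries, 25.8 to 53.6 CPM.

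Among 12 listed genes downstream of HOXA9 and MEIS1, 11 were tested and 1 was called higher in the MLL-fusion lines with 3R. Of all 13107 genes tested 0.0458% were called higher. The listed gene was FLT3, a receptor kinase of blood progenitors, with 65.7 CPM or more in each MLL-fusion library, at most 0.679 CPM in the others and an edgeR adjusted p of 0.00748. FLT3 passed the count filter through the MLL-fusion libraries, where it is high, so its direction carries no further weight. Next in order of p were ID2 at 2.84 ± 0.72 (SE, log2), ERG at 7.94 ± 2.48 and MYC at -2.45 ± 0.95, with edgeR adjusted p of 0.359, 0.390 and 0.457. For the peptide, 0 of the 11 were called over 8 lines or in the MLL-fusion lines, where SOX4, the lowest in p, had -0.16 ± 0.08 (edgeR adjusted p 0.834).

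Genes that act on the HOXA cluster were not called either. Of 20 listed activators 19 were tested, which comprise complex partners of MLL and elongation factors. KMT2A, the gene of MLL itself, was not found under that symbol and was not tested. Of the 19 tested, 0 were called in each of the 3 fits, nor were any of 14 tested Polycomb and H3K27 demethylase genes. In the MLL-fusion lines the lowest p for the peptide among these were KDM6A, which removes the Polycomb mark, at -0.23 ± 0.10 (SE, log2), KDM6B at -0.21 ± 0.10 and EZH1 at -0.21 ± 0.10, each with an edgeR adjusted p of 0.833. MLLT3, the AF9 gene, had -0.23 ± 0.09 (SE, log2) over the 8 lines and was not called. The CDX genes, activators of HOX genes in embryos, summed to at most 0.334 CPM in every library.

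Of 28 listed genes of the other HOX clusters, HOXB, HOXC and HOXD, 11 were at 1 CPM or more in each K562 library, where 0 HOXA members were on, and 0 were so in either KOPN8 library, where 9 were on. Summed, these genes stood at 491 and 582 CPM in K562 and at 0.410 and 0.549 CPM in KOPN8. P493-6 was near 0 for both, at 0.997 and 1.23 CPM. With the peptide, HOXB3 had -1.08 ± 0.29 (SE, log2) in the MLL-fusion lines with an edgeR adjusted p of 0.833, the lowest p of the 5 tested, and 0 of 5 were called.

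The genes whose pattern over the 8 lines was most like that of HOXA9 were sought among 13030 genes outside the cluster, by the Pearson correlation of log2 CPM averaged over the peptides of a line. They were CCL28, a chemokine (0.998), HRH2, a histamine receptor (0.997), FLT3 (0.994), IGFBP7 (0.988) and SLC22A20 (0.984). FLT3 averaged 537 CPM in MOLM13 and 86.5 in THP1, while CCL28 averaged 4.76 to 14.7 CPM in the MLL-fusion lines. SLC22A20 stayed below 1 CPM in all lines. For HOXA7 the most similar were SPRY1, an inhibitor of receptor kinase signals (0.978), EAPP (0.975), C5orf39 (0.968), SMARCE1, a chromatin remodeler subunit (0.968), and MGAT5B (0.958). SPRY1 averaged 14.0 CPM in KOPN8, 8.61 in RS4-11, 5.13 in JURKAT and 0.112 in THP1. With 8 lines and this many genes, high values are met often, and they describe an order over the lines and carry no test.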

How the data were processed

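The deposited files hold counts, whole numbers of reads per gene symbol and not normalized, for 23230 symbols plus 5 entries that name no gene, which were left out of library sizes and tests. The submitters' processing notes list HTSeq 0.6.1, TopHat2 2.1.1 and CASAVA 1.8.4, besides DESeq and DESeq2 3.0, and the builds GRCh38 and hg19, without their roles. The sources used here do not give the strand setting or the treatment of overlapping genes. Coordinates printed here come from the GENCODE v29 and RefSeq tables, not from the authors' files. Per the labels' protocols, libraries were prepared from polyadenylated RNA with a NEBNext Ultra kit.

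Counts were tested with edgeR 4.0.16 (quasi-likelihood, R 4.3.3) with TMM scaling, filterByExpr at a minimum count of 10 with the peptides or line classes as groups, and Benjamini-Hochberg adjustment over all genes tested, with calls at an adjusted p under 0.05. Peptide fits used the 16 libraries with cell line as the block, since both libraries of a pair come from the same line. The class fit used the 3R libraries. The SE of an edgeR change was taken as its size over the root of F. DESeq2 1.42.0 was an alternative. The edgeR fits were tested on simulated data. Log2 CPM used a prior count of 2. Intervals and floors cover counting error only. The labels do not describe separate cultures within a line, and p-values therefore reflect only how these lines differ, partly perhaps for technical reasons.

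The members, lists and tests were chosen with earlier results of these data known. The peptide groups for the filter, and library sizes taken before it, were settled after other settings had been run, and those are given as alternatives. Named genes were all 10 members, the lowest p values of each listed group, and the 5 genes most like HOXA9 and HOXA7. A listed item is not reported here.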

Additional observations from a re-analysis of the deposited data

Results flagged for a closer look

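Of 50 groups of 4 to 10 values of a member that were checked, 6 had a value far from the others relative to the range of the group. Chance flags about 1 in 20 groups of independent values, a rate that does not apply to these groups, since silent lines are tied at or next to the value of 0 counts and the 3R and Y518R values of a line come from the same line. In the lines without an MLL fusion, HOXA7 in JURKAT stood at a log2 CPM of 2.51 with 3R and 1.95 with Y518R, with the next line at -3.83 and -3.28. HOXA13 in JURKAT stood at -0.50 with 3R and -0.17 with Y518R, both under 1 CPM, with the next line at -3.83 each time. In the MLL-fusion lines, HOXA11 in RS4-11 stood at -2.63 with Y518R, with the next line at 5.29. The log2 ratio of HOXA11 in RS4-11 was -1.29, with the next line at -0.05, and rests on 14 and 3 counts.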

How the results depend on the processing

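No member was called for the peptide under any alternative in which it was tested. The count of all genes called over 8 lines moved from 0 to 3 without an expression filter and to 1 with a filter taken from the blocked design, an alternative chosen after seeing the data, as were library sizes recomputed after the filter, which called 0 in both. In the MLL-fusion lines it moved from 0 to 52 without a filter and to 1 with DESeq2, and leaving out 1 line at a time gave 0 to 3 (3 without MOLM13, 1 without RS4-11). Without the replicate block, by which the libraries of a line are paired, edgeR called 0 in both comparisons, with 4 genes at an unadjusted p under 0.05 in each, and gave HOXA2 -0.0309 and HOXA9 0.0405 over 8 lines. HOXA9 had 0.111 without RAJI and THP1 together, and HOXA2 had 0.0807 in the MLL-fusion lines with DESeq2. Leaving out 1 line at a time turned other values near 0. Over 8 lines HOXA4 ranged from -0.0662 (without RS4-11) to 0.283, HOXA6 from -0.198 to 0.0296 (without RS4-11), HOXA10 from -0.0246 (without KOPN8) to 0.0310, turning also without K562 or P493-6, and HOXA9 from -0.00595 to 0.00722 (without JURKAT), turning also without P493-6. In the MLL-fusion lines HOXA6 ranged from -0.293 to 0.0565 (without RS4-11) and HOXA10 from -0.0244 (without KOPN8) to 0.0175. HOXA9 fell under the filter, and has no value, when any 1 MLL-fusion line was left out. HOXA10 has no value without THP1 or without RS4-11, so its ranges do not cover those fits. Without RAJI and THP1 together HOXA10 had 0.0975 over the remaining lines and 0.0893 in the MLL-fusion lines. HOXA2 and HOXA13 also lack a value in some of the leave-one-out fits. In all 13 of 244 member values turned. For the class comparison with 3R, 7 genes became 477 with DESeq2 and 4 in the Y518R libraries, and 4 to 11 when 1 line was left out (4 without MOLM13, 11 without JURKAT). The exact test gave a p under 0.05 for 3 members, and for 2 to 6 when 1 line was left out. The count was 6 without THP1, where HOXA2, HOXA3 and HOXA4 joined. It was 2 without any 1 of the other-class lines, where HOXA11 had an exact p of 0.0571. HOXA11 still lay apart by class there, at a log2 CPM of -1.35 or more against -2.52 or less, so only its p moved. The cause of these changes was not tested. For the exact test the share of all genes was taken only with 3R and all 8 lines. Leaving out 1 line at a time from the pooled class ratios was also chosen after seeing the data. The count of pairs on stayed within 31 to 40. With 1 library per peptide and line, depth limits members under about 10 counts, and differences between lines and cultures cannot be told apart.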
